A study of Mus musculus with 12 samples.

Results

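The long noncoding RNAs Malat1, Neat1, Lncenc1, Snhg1, Snhg3, Snhg12, Gas5, Miat and Tug1, 9 in all, were followed through the first days of embryonic stem cell differentiation. They were chosen by gene symbol from a table of 24495 genes, and Lncenc1 was selected on its lower level in the knockdown line. The choice of the 9 was made with earlier results of these data known. All 9 were in the table and passed the filter on low counts. RNA-seq was done on CCE-Nanog-GFP mouse embryonic stem cells (mESCs), a line that carries a GFP reporter for Nanog. The control line, shSC, carried a scrambled shRNA and the knockdown line, shCTSL, an shRNA against Ctsl, the gene of the lysosomal protease cathepsin L. Both had been made with lentivirus and selected with puromycin, and shCTSL was 1 line made with 1 shRNA. Each line was sequenced as undifferentiated mESCs grown with LIF (Day 0) and, once formed into embryoid bodies, on Day 2 and Day 4 of culture without LIF and with all-trans retinoic acid. The design gave 6 groups of 2 libraries, 12 in all, and asks how these RNAs change over differentiation and whether they do so when Ctsl is depleted.

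Long noncoding RNAs work as RNA and not as templates for protein. Malat1 lies in nuclear speckles, the bodies where splicing factors are stored, and Neat1 builds paraspeckles, which hold RNA-binding proteins in the nucleus. Snhg1, Snhg3, Snhg12 and Gas5 are hosts of small nucleolar RNAs (snoRNAs): their introns carry the snoRNAs that guide the modification and processing of ribosomal RNA, while the spliced host RNA is short-lived and, for Gas5, removed by nonsense-mediated decay. Lncenc1 is a transcript of naive mESCs, Miat (also called Gomafu) is a nuclear RNA known from neurons, and Tug1 is a broadly expressed RNA first described in the retina. The libraries held poly(A) RNA of whole cells, so the place of an RNA in the cell was not measured. The mature end of Malat1 and of the long form of Neat1 carries no poly(A) tail, and the part of this in their levels was not tested.

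The total count per library ranged from 11171111 to 27155553. The SD of the log2 ratio between replicates over genes was 0.178 to 0.269 in 5 groups and 0.604 in shCTSL Day 2, whose replicates stood apart from each other. In that group replicate 1 had 3.43% of its counts on the ribosomal precursor Rn45s, against 0.170 to 1.44% in the other libraries. Ctsl itself, in normalized CPM (CPM, counts scaled to a common library size with TMM factors), was 137 and 147 in shSC against 39.2 and 37.5 in shCTSL at Day 0, 369 and 391 against 211 and 155 at Day 2, and 484 and 423 against 257 and 253 at Day 4. It was lower in both shCTSL libraries on each day, with log2 fold changes of -1.89 ± 0.15 (SE), -1.06 ± 0.14 and -0.83 ± 0.14 and adjusted p of 0.00246, 0.0342 and 0.0896 by edgeR's quasi-likelihood test, so the Day 4 difference did not pass the threshold. Of 12 pluripotency markers 10 fell by Day 4 in shSC, and their summed level went from 7800 to 7946 CPM at Day 0 to 634 to 744 CPM at Day 4. Of 12 primitive endoderm markers 11 rose. Other lists had risers too: of 10 neural markers 5 rose and 3 fell. Of 10 endothelial and blood progenitor markers 7 rose and 2 fell, and of 7 fibroblast markers 6 rose and 1 fell. Over all genes tested, 28.7% were called lower and 32.1% higher in the same comparison, as defined below.

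The regions around the start sites of the 4 snoRNA hosts and of Lncenc1 are shown first, since the hosts moved together and transcripts of the translation machinery, snoRNA hosts among them, are known to begin with a run of pyrimidines. Each line gives 50 bases before to 30 bases from the start site in RefSeq, 5′ to 3′ on the strand of the gene, and the capitals mark the longest run of only C and T that lies within 10 bases of the start. The windows come from the RefSeq promoter table and each was placed on NCBIM37 (mm9) by its only exact match.
Snhg1, chr19:8797927-8798006, plus strand: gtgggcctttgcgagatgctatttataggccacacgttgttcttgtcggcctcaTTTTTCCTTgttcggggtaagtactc
Snhg12, chr4:131864543-131864622, plus strand: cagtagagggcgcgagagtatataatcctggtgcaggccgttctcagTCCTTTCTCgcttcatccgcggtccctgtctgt
Snhg3, chr4:131909572-131909651, minus strand: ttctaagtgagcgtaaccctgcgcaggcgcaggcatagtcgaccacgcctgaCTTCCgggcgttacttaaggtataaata
Gas5, chr1:162965247-162965326, plus strand: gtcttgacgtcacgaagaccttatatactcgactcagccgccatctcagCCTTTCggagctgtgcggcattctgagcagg
Gas5, upstream start, chr1:162964682-162964761, plus strand: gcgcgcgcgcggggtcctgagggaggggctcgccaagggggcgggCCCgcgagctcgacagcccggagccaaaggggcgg
Lncenc1, chr13:98204875-98204954, plus strand: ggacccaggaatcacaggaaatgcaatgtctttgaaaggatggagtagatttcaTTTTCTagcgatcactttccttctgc

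The run was 9 bases long in Snhg1 and in Snhg12, 5 in Snhg3, 6 at the downstream and 3 at the upstream start of Gas5, and 6 in Lncenc1. Over 32851 RefSeq promoters the median run was 4 bases, 44.9% had 5 or more and 13.7% had 8 or more, so a run as long as those of Snhg1 and Snhg12 was in the minority and the others were common. In the longer windows of 250 bases before to 50 after the start, 6 motifs were searched on both strands. The cAMP response element TGACGTCA, held by 1.79% of promoters, stood 46 bases before the downstream start of Gas5. The TATA box TATAAA, in 13.6% of promoters, was found on the opposite strand 29 bases before the start of Snhg1. In Snhg3 it was found on the strand of the gene, 22 bases after the start. The CCAAT box, in 37.4%, was found in Snhg3 and at 2 places in Lncenc1. The GC box GGGCGG, in 35.7%, was found at both starts of Gas5 and in Snhg1, Miat and Tug1, while the octamer ATGCAAAT (1.74%) and the E-box CACGTG (7.15%) were found in none of the 9 windows of 8 members. These matches describe the letters only.

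By level per length, Lncenc1 led in undifferentiated shSC cells and Malat1 after 4 days. Normalized CPM per kb of exon at shSC Day 0 was 152 ± 7.5 (SD, n = 2) for Lncenc1, 74.9 ± 5.8 for Gas5, 49.1 ± 1.1 for Snhg3, 38.2 ± 3.3 for Malat1, 35.4 ± 0.12 for Snhg1, 26.2 ± 1.5 for Tug1, 25.2 ± 1.9 for Snhg12, 6.56 ± 0.49 for Neat1 and 0.587 ± 0.020 for Miat. Tug1 and Snhg12 overlapped between libraries, and the other neighbours in this order did not. With the length of the longest single transcript in place of all exons, Snhg12 moved from rank 7 to rank 4, and Lncenc1, Gas5 and Snhg3 stayed at the top. For Neat1 both lengths were 20771 bases, that of its long form, so its level and rank rest on that length. Which form of Neat1 gave the reads was not measured, and from a shorter form the level per length would be higher. At shSC Day 4 the order was Malat1 (98.4 ± 24), Gas5 (35.8 ± 2.8), Tug1 (33.7 ± 3.8), Snhg1 (16.1 ± 0.49), Snhg3 (15.2 ± 2.4), Lncenc1 (13.6 ± 1.2), Neat1 (10.1 ± 1.7), Snhg12 (9.74 ± 0.59) and Miat (0.322 ± 0.030). Gas5 and Tug1 overlapped there, as did Snhg1 with Snhg3, Snhg3 with Lncenc1, and Neat1 with Snhg12.

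**Figure D1:**
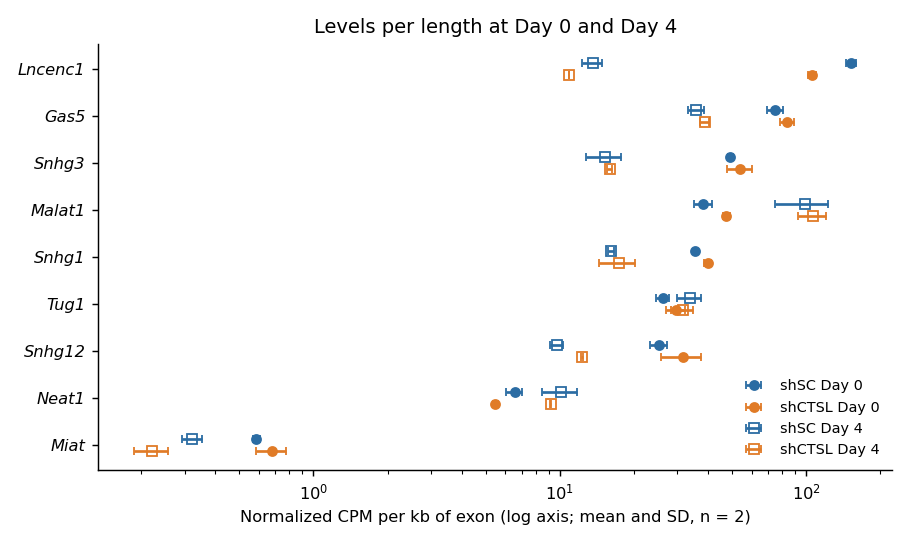
Level per length of each RNA, as normalized CPM per kb of exon on a log axis, with the mean and SD of 2 libraries for shSC (blue) and shCTSL (orange) at Day 0 (filled circles) and Day 4 (open squares). Lncenc1 goes from the top at Day 0 (152 in shSC) to 13.6 at Day 4, while Malat1 goes from 38.2 to 98.4.

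Most of the 9 RNAs fell once differentiation began. Culture without LIF, retinoic acid and embryoid body formation came together, so their parts cannot be told apart. From Day 0 to Day 2 in shSC, 6 of 9 fell (Lncenc1, Snhg1, Snhg3, Snhg12, Gas5 and Miat) and 0 rose, against 25.3% of all 15532 genes tested called lower and 29.3% called higher. A gene counts as called if its adjusted p was below 0.05 and it changed 1.5-fold or more. In shCTSL the same 6 and Tug1 fell and 0 rose, with 24.6% and 30.9% of all genes called. Without shCTSL Day 2 replicate 1 Neat1 was also called higher there, and without replicate 2 Malat1 (0.79 on the log2 scale, adjusted p = 0.000354). From Day 0 to Day 4 the same 6 fell and Malat1 and Neat1 rose in both lines, where 28.7% of genes were lower and 32.1% higher in shSC, and 27.6% and 32.3% in shCTSL. The median log2 fold change of the 9 was -1.20 in shSC and -1.30 in shCTSL at Day 2 and -1.07 and -1.20 at Day 4, and that of all genes was between 0.02 and 0.08. Since the 9 were chosen with earlier results known, these counts and medians describe them and are not a test of the set. In bulk samples like these, fewer cells of a type and less RNA per cell cannot be told apart.

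**Figure D2:**
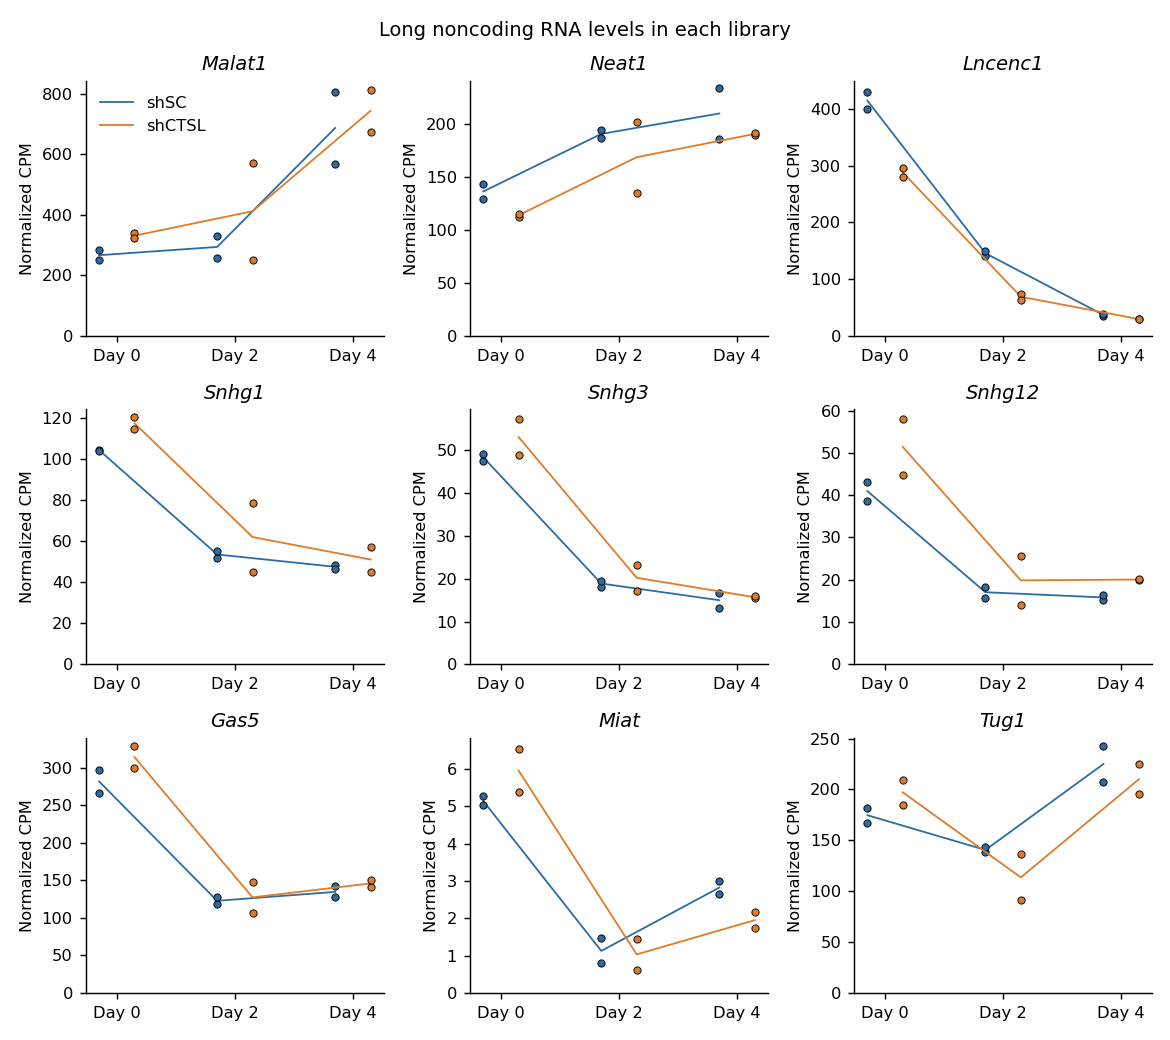
Normalized CPM of each RNA in each of the 12 libraries (points) by day, with lines through the means of 2 libraries for shSC (blue) and shCTSL (orange). Lncenc1, the 4 snoRNA hosts and Miat drop from Day 0 to Day 2, Malat1 and Neat1 have their highest means at Day 4 in both lines, and Tug1 is lowest at Day 2.

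Lncenc1 had the largest fall of the 9 by Day 4 in both lines. In shSC it measured 429.0 and 400.0 CPM at Day 0, 141 and 150 at Day 2 and 34.6 and 39.4 at Day 4. In shCTSL it measured 280 and 296 CPM at Day 0, 74.5 and 63.7 at Day 2 and 29.7 and 29.6 at Day 4. No library of one day overlapped with one of another day in the same line. The log2 fold change at Day 2 against Day 0 was -1.51 ± 0.11 (SE) in shSC and -2.06 ± 0.12 in shCTSL, and at Day 4 against Day 0 it was -3.49 ± 0.12 and -3.28 ± 0.12, with adjusted p of 1.13e-08 and 1.70e-08 for the latter pair. By Day 4 its level had decreased by 91.1% in shSC and had decreased by 89.7% in shCTSL. It was the only one of the 9 called lower from Day 2 to Day 4, with a log2 fold change of -1.98 ± 0.12 (adjusted p = 3.08e-06) in shSC and -1.22 ± 0.12 (adjusted p = 5.03e-05) in shCTSL.

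The 4 snoRNA hosts fell by Day 2 and, like most genes tested, were not called between Day 2 and Day 4. Gas5 measured 266 and 297 CPM at Day 0, 118 and 128 at Day 2 and 127 and 142 at Day 4 in shSC, and 329 and 299.7, 148 and 107, and 142 and 150.1 in shCTSL. Snhg1 measured 105 and 104 CPM, 52.0 and 55.0, and 48.5 and 46.5 in shSC, and 120.3 and 114, 78.8 and 45.2, and 44.9 and 57.2 in shCTSL. In both genes each Day 0 library lay above every later one of its line.
Snhg3 measured 47.7 and 49.2 CPM at Day 0, 18.2 and 19.6 at Day 2 and 13.3 and 16.7 at Day 4 in shSC, and 57.4 and 48.9, 23.3 and 17.2, and 15.5 and 15.9 in shCTSL. Snhg12 measured 38.7 and 43.2 CPM, 15.7 and 18.4, and 15.2 and 16.5 in shSC, and 58.0 and 44.8, 25.7 and 14, and 19.9 and 20.2 in shCTSL. The Day 0 libraries of these hosts also lay above all later ones.

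The log2 fold changes of the hosts at Day 4 against Day 0 in shSC were -1.07 ± 0.15 for Gas5, -1.13 ± 0.22 for Snhg1, -1.70 ± 0.17 for Snhg3 and -1.37 ± 0.25 for Snhg12. In shCTSL they were -1.11 ± 0.15, -1.20 ± 0.22, -1.76 ± 0.17 and -1.36 ± 0.25, and the largest adjusted p of the 8 tests was 0.000972. From Day 2 to Day 4 no host was called in either line, with log2 fold changes between -0.36 and 0.20. Most genes were not called either: 11.4% were called higher and 12.4% lower in shSC, and 11.0% and 12.4% in shCTSL. Snhg3 was lower in both Day 4 libraries than in both of Day 2 in each line (-0.34 ± 0.17 in shSC and -0.36 ± 0.17 in shCTSL), as was Snhg1 in shSC (-0.17 ± 0.22). Without shCTSL Day 2 replicate 2 Snhg1 was called lower in shCTSL (-0.63, adjusted p = 0.000169). The fall of Snhg1 by Day 2 in shCTSL, -0.92 ± 0.22 (adjusted p = 0.00374), was no longer called without shCTSL Day 2 replicate 2, where it was -0.57. The levels of these 4 RNAs moved together over the 12 libraries, with Pearson's r of 0.940 to 0.977 over 6 pairs of log2 CPM, and the points share the change between days.

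Reads on snoRNAs inside the hosts gave a second readout. The table had 6 rows for snoRNAs that lie within a host on its strand: Snord22 in Snhg1, Snora16a, Snora44, Snora61 and Snord99 in Snhg12, and Snord47 in Gas5. They were chosen by position after their values were seen. All 6 fell in both lines at Day 2 and at Day 4 against Day 0, where 24.6 to 28.7% of all genes were called lower. Between Day 2 and Day 4 edgeR called 0 of 6 in each line, beside 12.4% of all genes lower, and 1 in shSC and 0 in shCTSL had an unadjusted p under 0.05. At Day 4 the log2 fold change ranged from -2.49 (Snora16a) to -1.22 (Snord47) in shSC and from -2.36 (Snora16a) to -1.36 (Snord22) in shCTSL, with 5 to 172 counts per library. The source of these reads, spliced out snoRNA or host RNA with its introns, was not tested.

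**Figure D3:**
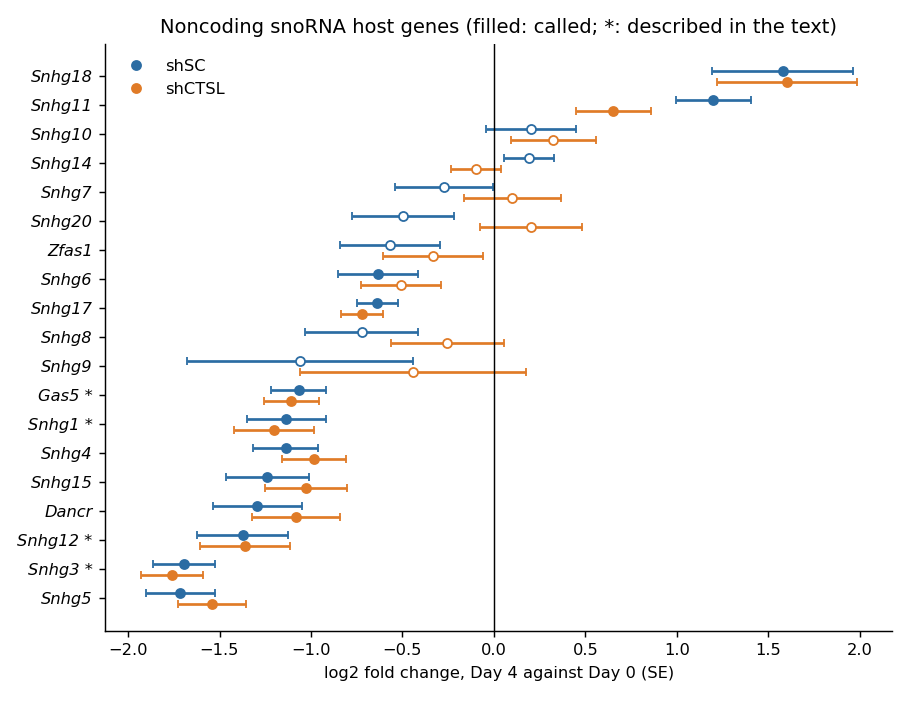
log2 fold change at Day 4 against Day 0 with its SE for the 19 noncoding snoRNA host genes tested, in shSC (blue) and shCTSL (orange), filled where called, with asterisks on the 4 described here. In shSC 10 fell and 2 rose, with Snhg5 and Snhg3 lowest and Snhg18 highest.

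Other genes of this kind are set beside them. Of 19 noncoding snoRNA host genes tested, these 4 included, 10 fell by Day 4 in shSC and 2 rose, and in shCTSL 9 fell and 2 rose, beside 28.7% of all genes lower and 32.1% higher in shSC and 27.6% and 32.3% in shCTSL. The median log2 fold change was -0.72 in shSC, against 0.03 over all genes. The lowest was Snhg5 at -1.71 ± 0.19 (adjusted p = 1.95e-05), and Snhg18 (1.58 ± 0.39) and Snhg11 (1.20 ± 0.20) rose. Without the 4, 6 of 15 fell and 2 rose in shSC, with a median of -0.63. In shCTSL 5 of these 15 fell and 2 rose, with a median of -0.33. Of 10 nonsense-mediated decay factors, which degrade transcripts such as Gas5, 6 fell and 0 rose by Day 4 in shSC, Upf3a (-0.87 ± 0.18) and Smg9 (-0.73 ± 0.16) among them, and in shCTSL 4 fell.

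Lncenc1 was one of 12 tested transcripts of the pluripotency-associated list, whose other members are named Platr, and 10 of the 12 fell by Day 4 in shSC and 0 rose. In shCTSL 10 fell and 1, Platr5, rose. Of all genes, 28.7% were called lower and 32.1% higher in shSC, and 27.6% and 32.3% in shCTSL. The median log2 fold change was -3.16 in shSC and -2.88 in shCTSL. Without Lncenc1, 9 of 11 fell in each line, with medians of -2.84 in shSC and -2.48 in shCTSL. Platr10 measured 105 and 96.8 CPM at shSC Day 0 and 1.10 and 1.39 at Day 4, a log2 fold change of -6.35 ± 0.17 (adjusted p = 2.80e-09). Platr21 changed least of those that fell, at -0.84 ± 0.31. The list was named for transcripts of pluripotent cells, so its direction is not independent of that.

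Malat1 and Neat1, the speckle and paraspeckle RNAs, went the other way. Malat1 measured 283 and 251 CPM at Day 0, 258 and 330.0 at Day 2 and 805 and 569.6 at Day 4 in shSC, and 339 and 323, 572 and 252, and 674 and 814 in shCTSL. The Day 4 libraries were above all earlier ones of their line, Day 0 and Day 2 overlapped, and the shCTSL Day 2 replicates differed by more than any other pair. The log2 fold change at Day 4 against Day 0 was 1.37 ± 0.32 in shSC (adjusted p = 0.00336) and 1.17 ± 0.32 in shCTSL (adjusted p = 0.00817). From Day 2 to Day 4 it was 1.22 ± 0.32 in shSC (adjusted p = 0.0158), which no longer passed when Day 2 replicate 1 (1.05, adjusted p = 0.124), Day 2 replicate 2 (1.41, 0.0504) or Day 4 replicate 1 (0.95, 0.130) was left out. In shCTSL it was 0.85 ± 0.32 (adjusted p = 0.0679), and this rise passed by DESeq2 (0.89, adjusted p = 0.0213) and in the unfiltered table (0.83, 0.00761). Leaving out single libraries moved it between 0.38 and 1.54, the highest without shCTSL Day 2 replicate 1.

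Neat1 changed less. It measured 129 and 143 CPM at Day 0, 195 and 187 at Day 2 and 234 and 185 at Day 4 in shSC, and 112 and 115, 135 and 202, and 190.0 and 191 in shCTSL. Day 0 lay below the later days in each line, and Day 2 and Day 4 overlapped. At Day 2 against Day 0 the log2 fold change was 0.48 ± 0.18 in shSC (adjusted p = 0.0337) and 0.57 ± 0.18 in shCTSL (adjusted p = 0.0169), both under the 1.5-fold cutoff. The shCTSL value was above it without shCTSL Day 2 replicate 1 (0.87, adjusted p = 1.32e-06), without shSC Day 0 replicate 2 (0.59) and with no filter on low counts (0.60). At Day 4 against Day 0 the log2 fold change was 0.62 ± 0.18 in shSC (adjusted p = 0.00950) and 0.74 ± 0.18 in shCTSL (adjusted p = 0.00380). In shSC it did not pass once Day 0 replicate 1 (0.55, adjusted p = 0.0706) or Day 4 replicate 1 (0.44, adjusted p = 0.0933) was left out.

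The proteins of these bodies are set against the 28.7% of all genes called lower and 32.1% called higher by Day 4 in shSC, and 27.6% and 32.3% in shCTSL. Of 24 paraspeckle proteins 7 fell and 3 rose by Day 4 in shSC, and 10 fell and 3 rose in shCTSL. Rbmx, an RNA-binding protein, rose (log2 fold change 1.78 ± 0.14) and Dazap1 fell (-0.94 ± 0.10) in shSC. Of 19 nuclear speckle proteins 8 fell and 1, the kinase Clk1 (1.18 ± 0.12), rose in shSC, and 12 fell and 1 rose in shCTSL. The splicing factor Srsf2 fell (-1.19 ± 0.12) in shSC. The medians in shSC were -0.32 and -0.49, against 0.03 over all genes.

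Miat was low throughout and dipped at Day 2. It had 10 to 81 counts per library, and measured 5.26 and 5.02 CPM at Day 0, 1.46 and 0.788 at Day 2 and 3.01 and 2.64 at Day 4 in shSC, and 5.37 and 6.53, 0.615 and 1.45, and 1.73 and 2.16 in shCTSL. Day 0 was highest, Day 4 intermediate and Day 2 lowest in both lines, with no overlap. The log2 fold change at Day 2 against Day 0 was -2.15 ± 0.34 in shSC (adjusted p = 0.000301) and -2.45 ± 0.36 in shCTSL (adjusted p = 0.000184). At Day 4 against Day 0 it was -0.85 ± 0.32 (adjusted p = 0.0345) and -1.59 ± 0.33 (adjusted p = 0.00170). The shSC call at Day 4 was lost without any 1 of its 4 libraries (-0.77 to -0.96). The rise from Day 2 to Day 4 in shSC, 1.30 ± 0.35 (adjusted p = 0.0183), was lost without shSC Day 2 replicate 2 (0.95) or Day 4 replicate 1 (1.19). In shCTSL the value was 0.85 ± 0.38 (adjusted p = 0.121), with both Day 4 libraries above both of Day 2. Leaving out single libraries moved it between 0.41 and 1.65, the highest without shCTSL Day 2 replicate 2.

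Tug1 also dipped at Day 2. It measured 182 and 167 CPM at Day 0, 138 and 143 at Day 2 and 243 and 207 at Day 4 in shSC, and 185 and 209.6, 91.0 and 136, and 225 and 195 in shCTSL. Day 2 was lowest in each line without overlap. From Day 2 to Day 4 Tug1 rose in both lines, with a log2 fold change of 0.68 ± 0.18 (adjusted p = 0.0154) in shSC and 0.89 ± 0.18 (adjusted p = 0.00427) in shCTSL. Between Day 0 and Day 2 the log2 fold change was -0.31 ± 0.18 in shSC (adjusted p = 0.143) and -0.79 ± 0.18 in shCTSL (adjusted p = 0.00277). The call in shCTSL was lost without shCTSL Day 2 replicate 1 (-0.49), and the rise in shSC without Day 2 replicate 1 (0.65), Day 2 replicate 2 (0.70) or Day 4 replicate 1 (0.56).

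From Day 2 to Day 4 the 9 RNAs split: Malat1, Miat and Tug1 rose and Lncenc1 fell in shSC, where 11.4% of all genes were called higher and 12.4% lower. In shCTSL Tug1 rose and Lncenc1 fell, with 11.0% and 12.4% of all genes called.

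**Figure D4:**
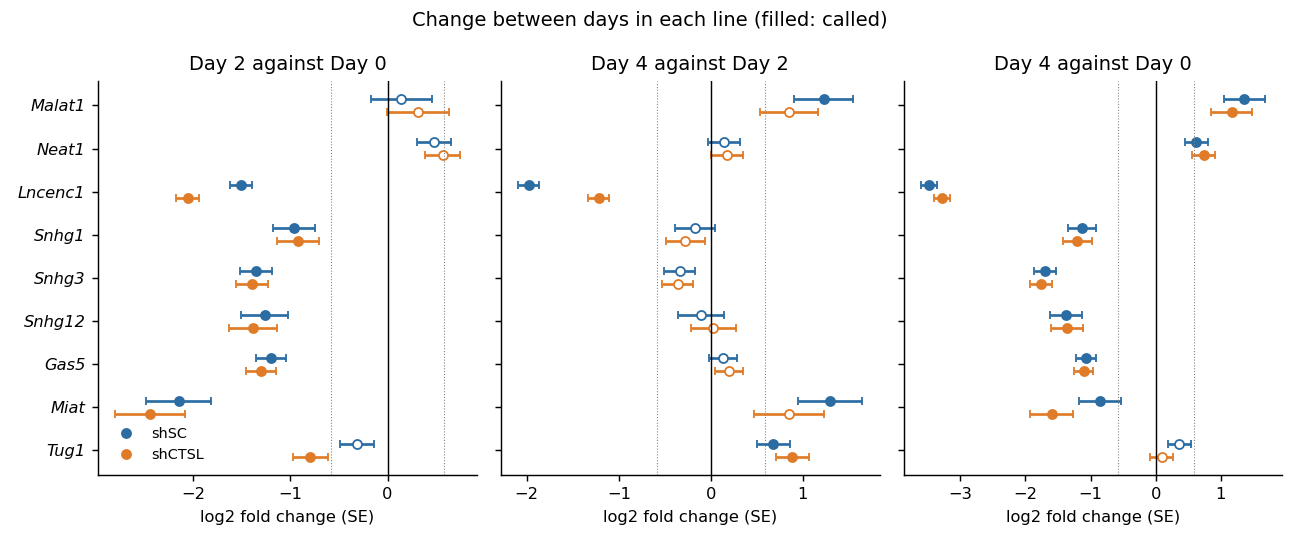
log2 fold change between days with its SE for each RNA in shSC (blue) and shCTSL (orange), filled where called, with dotted lines at a 1.5-fold change. Between Day 2 and Day 4 the 4 snoRNA hosts lie near 0, while Lncenc1 lies at -1.98 and -1.22.

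Between the lines, Lncenc1 was lower in shCTSL on every day, and this difference is a description, since it was the reason to choose the gene. All shCTSL libraries lay below all shSC libraries of the same day. The log2 fold change, shCTSL against shSC, was -0.53 ± 0.11 (SE) at Day 0, -1.08 ± 0.11 at Day 2 and -0.32 ± 0.12 at Day 4, which puts shCTSL at 0.695, 0.474 and 0.802 of the control level. Over the 3 days the mean was -0.64 ± 0.07. Leaving out single libraries gave -0.97 to -1.18 at Day 2. The change of Lncenc1 from Day 0 to Day 2 differed between the lines by -0.55 ± 0.16 on the log2 scale and that from Day 2 to Day 4 by 0.76 ± 0.16.

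The values of the other 8 RNAs are likewise given without a test. At Day 0 and Day 2 their differences were smaller than that of Lncenc1, and at Day 4 Miat and Snhg12 differed by more. At Day 0 the log2 fold changes ran from -0.26 ± 0.18 for Neat1 to 0.33 ± 0.24 for Snhg12, at Day 2 from -0.31 ± 0.18 for Tug1 to 0.49 ± 0.32 for Malat1, and at Day 4 from -0.54 ± 0.34 for Miat to 0.34 ± 0.25 for Snhg12. The Day 2 values depended on single libraries: leaving out 1 gave -0.21 (without shCTSL Day 2 replicate 1) to 0.96 for Malat1, -0.91 (without shCTSL Day 2 replicate 2) to 0.44 (without shSC Day 2 replicate 1) for Miat and -0.63 (without shCTSL Day 2 replicate 2) to -0.04 for Tug1. Neat1, Snhg1, Snhg3, Snhg12 and Gas5 also changed sign at Day 2 without 1 library, within -0.50 to 0.59. At Day 4 the sign changed for Malat1 (-0.12 to 0.38), Neat1 (-0.30 to 0.04), Snhg1 (-0.08 to 0.26), Snhg3 (-0.09 to 0.24) and Tug1 (-0.21 to 0.02). The means over the days of Snhg1, Snhg3, Snhg12 and Gas5 were 0.16 ± 0.12, 0.10 ± 0.10, 0.30 ± 0.14 and 0.11 ± 0.09. No call is read for the members here, and over all genes 0.0386%, 0.0644% and 0.0129% were called between the lines at Day 0, Day 2 and Day 4, and 0.270% in the mean of the 3 days.

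**Figure D5:**
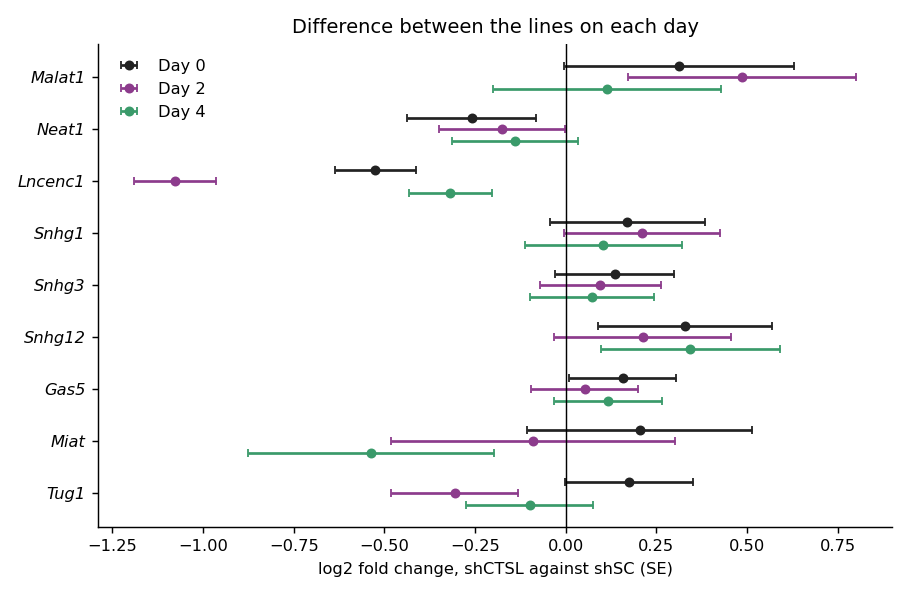
log2 fold change of shCTSL against shSC with its SE for each RNA at Day 0 (black), Day 2 (purple) and Day 4 (green). Lncenc1 lies below 0 on each day, at -0.53, -1.08 and -0.32, and the other RNAs lie between -0.54 and 0.49.

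Whether the change between days differed between the lines was tested for the other 8. By edgeR 0 of 8 was called in each of the 3 interactions, 0 had an unadjusted p under 0.05, and DESeq2 called 0 as well, while 0%, 0.00644% and 0% of all genes were called. The smallest adjusted p was 0.485, for Tug1 between Day 0 and Day 2, with a difference of -0.48 ± 0.25 on the log2 scale. For Malat1 and Miat between Day 2 and Day 4, called in shSC but not in shCTSL in the fit described, the difference was -0.37 ± 0.44 and -0.45 ± 0.52. The standard errors are wide, and the values depended on the shCTSL Day 2 replicates: without replicate 2 of that group Tug1 (-0.80, adjusted p = 0.000534) and Malat1 (0.65, adjusted p = 0.0245) passed between Day 0 and Day 2 and Malat1 (-0.85, adjusted p = 0.00846) between Day 2 and Day 4, while 4124 and 2323 of 15837 genes were called in these interactions without that library. Without replicate 1 these values were -0.22, -0.54 and 0.33 and none was called.

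The nearest tested gene on each side was read from the annotation of the same build. Lncenc1 (chr13:98204925-98266960, plus strand) has Enc1 181931 bp away on the same strand, and Enc1, an actin-binding protein of the nervous system, fell with it by Day 2, with log2 fold changes of -1.77 ± 0.21 in shSC and -2.35 ± 0.21 in shCTSL. Unlike Lncenc1, Enc1 was not called from Day 2 to Day 4 in either line, and between the lines it differed by -0.54 ± 0.21 at Day 2 (adjusted p = 0.225). Arhgef28, 401590 bp away on the other side and on the other strand, rose in both lines, with log2 fold changes of 1.84 ± 0.19 in shSC and 2.69 ± 0.20 in shCTSL by Day 2. Malat1 and Neat1 lie 22037 bp apart on the minus strand of chromosome 19, and Frmd8, the gene next to Neat1, stayed under the 1.5-fold cutoff at Day 4 against Day 0 (log2 fold change in shSC 0.56 ± 0.10, adjusted p = 0.000748). Slc3a2, an amino acid transporter subunit that starts 127 bp from Snhg1 on the other strand, fell by Day 4, with log2 fold changes of -1.87 ± 0.17 in shSC and -1.59 ± 0.17 in shCTSL, and Wdr74 on the other side fell with -1.86 ± 0.16 and -1.68 ± 0.16. Morc2a, 682 bp from Tug1 on the other strand, was not called in any comparison between days.

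Snhg3 and Gas5 share sequence with a neighbour. Snhg3 (chr4:131903929-131909601) overlaps Rcc1 on the same strand, and Rcc1, which was 315 CPM at shSC Day 0, had a log2 fold change of -1.90 by Day 4 (adjusted p = 1.64e-07). Gas5 (chr1:162964553-162968670) overlaps Zbtb37 on the other strand, which was at 8.69 CPM at shSC Day 0. Counting by strand would not separate Snhg3 from Rcc1. For Gas5 and Zbtb37 it could, but the sources used here do not say if reads were counted by strand. How reads from these overlaps were assigned is not given, and the part of this in the values was not tested.

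The genes most like each RNA over the 12 libraries, out of 11013 with a mean of at least 5 CPM, were named by Pearson's r of log2 CPM as a description. They were Ttpa, Morc1 and Phf11d for Lncenc1 (0.985 to 0.984), Srsf2, Stoml2 and Dpy30 for Snhg3 (0.996), and Anp32b, Uchl3 and Srp19 for Snhg1 (0.994). For Snhg12 they were Fkbp1a, Phf5a and Coa6 (0.992 to 0.989) and for Gas5 Mrpl20, Cox10 and Alkbh3 (0.994 to 0.991). For Malat1 they were Atp1b3, Leng1 and Sat1 (0.978 to 0.961), for Neat1 Plcg1, Tmem184b and Kidins220 (0.981 to 0.977), for Tug1 Prpf39, Slc5a5 and Zbtb6 (0.985 to 0.967) and for Miat Zfp553, Luc7l and Foxred2 (0.976 to 0.970). The 12 points share days and lines, and Malat1 and Neat1, neighbours on the chromosome, correlated with each other at 0.400.

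Over the other 38 long noncoding RNAs tested, 15 rose and 8 fell by Day 4 in shSC, with a median log2 fold change of 0.41. In shCTSL 13 rose and 11 fell, with a median of 0.12. Of all genes, 32.1% were called higher and 28.7% lower in shSC, and 32.3% and 27.6% in shCTSL. The 9 RNAs described here, chosen with earlier results known, had a median of -1.07 in shSC. Of the 38, Fendrr and Airn had the highest called changes in shSC. Fendrr measured 0 and 0.0620 CPM at Day 0 and 6.23 and 5.55 at Day 4, and Airn 0.0762 and 0, then 5.39 and 4.44. Tsix, the antisense RNA of the X inactivation centre, fell in both lines, with a log2 fold change of -2.18 ± 0.25 in shSC. Between the lines 0, 2 and 2 of the 38 were called lower at Day 0, Day 2 and Day 4, and 0 higher. Of all 15532 genes 6, 10 and 2 were called on these days (0.0386%, 0.0644% and 0.0129%). The 2 of Day 4 were therefore the only genes called between the lines on that day.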

How the data were processed

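Poly(A) RNA of 12 libraries was sequenced by the authors from directional libraries, aligned to mm9 with STAR 2.3.0e after FastQC 0.11.2, filtered by mapping quality, chromosome and mitochondrial origin with SAMtools 0.1.19, and counted per RefSeq gene with featureCounts 1.6.2. The deposited values are raw counts of 24495 genes, and the authors tested them with DESeq2 1.16.1. The control libraries are labelled scr and WT.

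The analysis used edgeR 4.0.16 (R 4.3.3). The filterByExpr function, at a minimum count of 10, left 15532 genes, all 12 libraries were fitted by the quasi-likelihood method after TMM normalization with 6 residual degrees of freedom, and p-values were adjusted over all genes by the Benjamini-Hochberg method. Called means an adjusted p under 0.05 and at least 1.5-fold (0.585 on the log2 scale). The test was tested on simulated data. The replicates are biological replicates of 1 line each, so p-values measure the spread between these libraries. Correlations used log2(CPM + 0.5). DESeq2 1.42.0 was an alternative, with those of the closing section. Same-numbered replicates did not deviate together (r from -0.465 to 0.257), so they were not paired.

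The members and the gene lists were chosen with earlier results of these data known. The genes named were the members, Ctsl, the 3 genes most like each member with a mean of at least 5 CPM, the nearest tested gene on each side (not all are reported here), and of each list the 2 highest and 2 lowest called in shSC at Day 4 against Day 0. A few other list genes, the overlapping genes and the snoRNAs were chosen after their values were seen. Positions are from the GENCODE annotation of NCBIM37, which is mm9. RefSeq windows were found for 8 of the 9 members.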

Additional observations from a re-analysis of the deposited data

Results flagged for a closer look

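For 2 RNAs every shCTSL library lay above every shSC library on one day and below on another. How many of all genes did the same was not counted, so these 2 are a description. Miat was higher in shCTSL at Day 0 (5.37 and 6.53 against 5.26 and 5.02 CPM) and lower at Day 4 (1.73 and 2.16 against 3.01 and 2.64 CPM), and the log2 difference between the lines at Day 4 minus that at Day 0 was -0.74. Tug1 was higher in shCTSL at Day 0 (185 and 209.6 against 182 and 167 CPM) and lower at Day 2 (91.0 and 136 against 138 and 143 CPM), with -0.48 for Day 2 minus Day 0. The interaction tests of both did not pass, with adjusted p of 0.819 and 0.485 by edgeR's quasi-likelihood test. With 2 libraries a group, no test for single outlying libraries was made.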

How the results depend on the processing

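With a cutoff of 1.5 on the log2 scale, the number of the 9 RNAs called was 2, 2 and 1 in shSC (Day 2 against Day 0, Day 4 against Day 0, Day 4 against Day 2) and 2, 3 and 0 in shCTSL. Of all 15532 genes, 3844, 4778 and 1462 were called at this cutoff in shSC and 3981, 4697 and 1312 in shCTSL. With only the libraries compared in the fit, 1 of the 9 was called in shCTSL at Day 4 against Day 2, beside 1201 of 14993 genes. Leaving out single libraries gave 1 to 4 RNAs called in shSC and 2 to 4 in shCTSL at Day 4 against Day 2, and 0 to 2 and 0 to 1 in the interactions of Day 2 against Day 0 and of Day 4 against Day 2. RLE normalization, DESeq2, the other filters and no fold cutoff left the counts of called RNAs within 1.5 times of those given. The fit with a replicate block called 6, 8 and 4 in shSC, 7, 8 and 2 in shCTSL and 0 in the interactions, and changed no count. Its numbers pair no animals or days by the labels.

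Directions turned without single libraries for small changes, and the cause was not tested. At Day 2 against Day 0 the ranges were -0.044 to 0.31 for Malat1 in shSC and -0.35 to 0.79 in shCTSL. At Day 4 against Day 2 they were -0.042 to 0.30 for Neat1 and -0.22 to 0.0032 for Snhg12 in shSC, and in shCTSL -0.11 to 0.49 for Neat1, -0.63 to 0.15 for Snhg1, -0.36 to 0.50 for Snhg12 (-0.0035 without a filter) and -0.019 to 0.42 for Gas5. For Tug1 in shCTSL at Day 4 against Day 0 the range was -0.015 to 0.19, and for the interactions of Day 4 against Day 2 it was -0.85 to 0.33 for Malat1 and -0.98 to 0.37 for Miat. With only the libraries compared, the shCTSL calls of Snhg1 (adjusted p = 0.0564) and Tug1 (0.0515) at Day 2 against Day 0 and of Tug1 at Day 4 against Day 2 (0.112) were lost.

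Of 36 differences between the lines of single RNAs, 19 moved by more than the spread between replicates under at least 1 setting. Over all genes, the counts called between the lines at Day 0, Day 2, Day 4 and in the mean of the 3 days were 6, 10, 2 and 42 by the edgeR fit, 48, 125, 132 and 128 by DESeq2, 29, 60, 119 and 185 without a filter, and, on the first 3, 269, 0 and 711 with only the libraries compared. The 2 libraries a group, the 10 to 81 counts for Miat and the wide spread of shCTSL Day 2 limit what can be resolved.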
